A study of Mus musculus with 24 samples.

Results

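The complement genes followed here were measured across the 4 genotypes of a mouse cross, at the level of messenger RNA in frontal cortex. The set was chosen by gene symbol for its link to synapse pruning in progranulin deficiency, not by measured values. It holds the 3 chains of C1q (C1qa, C1qb and C1qc), the components C3 and C4b, the receptors Itgam, C3ar1 and C5ar1, and the regulator Serping1. These are 9 of the 52352 genes that had a matched transcript. All 9 were among the 18239 genes that passed the filter on low counts and were tested.

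Complement is a cascade of blood and tissue proteins that tags surfaces for removal. In the classical pathway C1q recognises a surface, its partner proteases cleave C4 and C2, and the resulting enzyme splits C3 into a fragment that stays on the surface and a small fragment that acts through a receptor. In brain, C1q is made mainly by microglia, and microglia carrying the receptor CR3, whose alpha chain is encoded by Itgam, can engulf synapses tagged by C1q and C3. Progranulin, the product of Grn, is a secreted and lysosomal glycoprotein, and mice that lack it are known for raised complement and loss of synapses with age.

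The data came from 24 mice of 6 ages, which the labels tie to no litter. There was 1 poly-A RNA library per mouse, 6 for each genotype, of which 3 were female and 3 male. Grn+/+ hTDP- mice have both copies of Grn and no transgene and were 9.44 to 10.79 months old. Grn+/+ hTDP+ mice carry a human TDP-43 transgene (TARDBP) and were 9.44 to 10.07 months old. Grn+/- hTDP- mice have 1 working Grn copy and were 8.19 to 10.79 months old, and Grn+/- hTDP+ mice have both changes and were 9.44 to 10.07 months old. Where values of the 4 groups stand side by side, they follow that order. No group lacks Grn entirely, and the promoter that drives the transgene is not given in the sources used here.

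The libraries held 61445842 to 100859149 estimated reads. Grn stood at 51.0 ± 7.34 and 25.9 ± 6.23 CPM (counts scaled to the library total after TMM adjustment, mean ± SD, n = 6 each) in Grn+/+ hTDP- and Grn+/- hTDP- mice, and at 47.9 ± 8.10 and 26.7 ± 5.29 CPM in Grn+/+ hTDP+ and Grn+/- hTDP+ mice, with no overlap in either pair (exact two-sided permutation p = 0.0021645 for each, the smallest that splits of 6 against 6 allow). Human TARDBP was at 65.5 to 81.4 CPM in every hTDP+ library and at most at 0.0308 CPM in the others. One library stood apart: Grn+/+ hTDP+ replicate 2 had reads on 40188 transcripts, where the other libraries had them on 65994 to 69846, and 13 of 114 cell type marker genes at 0, against 0 to 8. No complement gene of the set was at 0 in any library. Replicate numbers follow accession order and only name the mice.

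The levels of the 9 genes spanned a wide range. On the TPM scale, which corrects for transcript length, the mean over 24 mice was 87.3 ± 12.6 for C1qa, 77.0 ± 11.5 for C1qb and 57.0 ± 8.63 for C1qc. C4b followed at 8.59 ± 3.69 TPM and Itgam at 8.10 ± 1.12 TPM, 2 means that lie within the spread between mice. Serping1 stood at 3.97 ± 2.11 TPM. The C3a receptor gene C3ar1 was at 0.741 ± 0.164 TPM and the C5a receptor gene C5ar1 at 0.573 ± 0.312 TPM, again within the spread. C3 itself was the lowest, at 0.115 ± 0.0871 TPM from a median of 14 reads per library and as few as 2. Its values below therefore carry large counting error, whereas the C1q chains rest on at least 1476 reads each in every library.

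**Figure D1:**
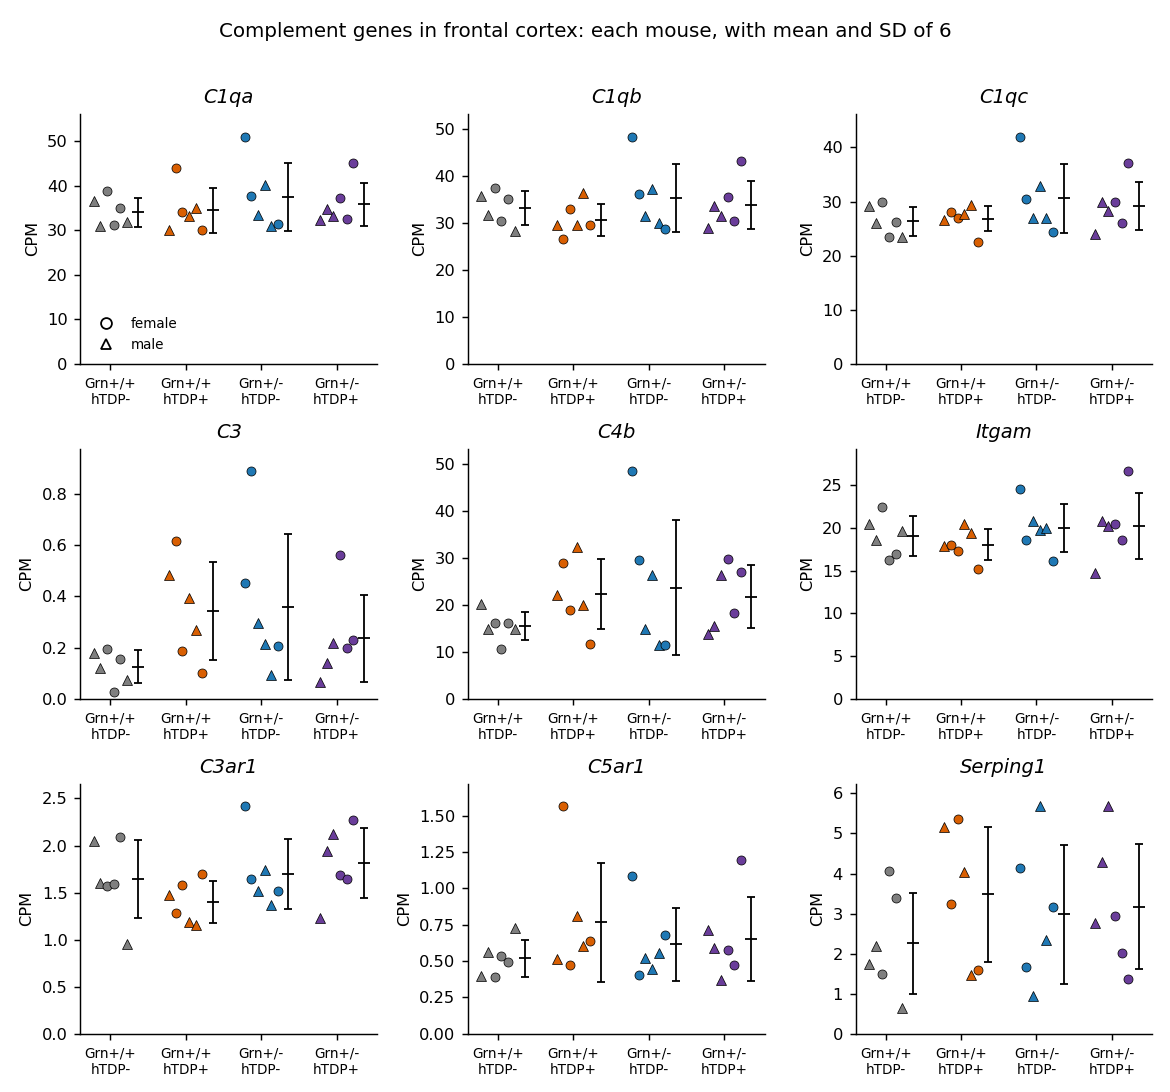
CPM of each of the 9 genes (y axis, linear from 0) in each mouse by genotype (x axis); circles are females, triangles males, and the bars give the mean and SD of 6 mice. Every pair of genotypes overlaps for every gene, which was not set against all genes tested. Grn+/- hTDP- replicate 1 is the highest of all 24 for C1qa, C1qb, C1qc, C4b and C3ar1, and C3 is at most 0.887 CPM.

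None of the 9 genes passed an adjusted p of 0.05 (edgeR's quasi-likelihood test, Benjamini-Hochberg over all 18239 genes) in any comparison of genotypes. The groups compared overlapped for each of the 9, which is a description only, because the share of all genes without overlap was not counted. Few genes passed at all. For the transgene, the calls were 0.0329% of genes in Grn+/+ mice, 0.0219% in Grn+/- mice and 0.11% for the average of both. For loss of 1 Grn copy they were 0.011% without the transgene, 0.00548% with it and 0.0219% for the average. Both changes against neither gave 0.0768%, and the interaction, which asks whether the transgene acts differently in Grn+/- mice, gave 0%, with 434 genes at an unadjusted p under 0.05. The count of 0 among 9 is near these background shares. Limma voom called 0 of the 9 in each of these comparisons, and so did DESeq2, which for both changes against neither gave an adjusted p to 2 of the 9 only. At an unadjusted p under 0.05 stood 1 of 9 for the transgene in Grn+/+ mice (C3; 7.83% of all genes), 0 for it in Grn+/- mice (2.38%), 1 for Grn+/- without the transgene (C3; 3.41%) and 1 for Grn+/- with it (C3ar1; 3.37%). There were 0 for both changes against neither (9.4% of all genes), 1 for the interaction (C3; 2.38%), 0 for the average transgene effect (7.86%) and 1 for the average Grn effect (C1qc; 4.93%).

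The direction of the estimates was uneven. For the average transgene effect 4 of 9 log2 changes lay above 0, with a median of -0.02, against 51.6% of all genes tested and a median of 0.0031. For the average Grn effect 8 of 9 lay above 0, with a median of 0.13, against 53.5% of all genes and a median of 0.0055. Because several of these genes moved together from mouse to mouse (given below), their signs are not separate observations.

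The 3 C1q genes encode the chains that assemble into the recognition molecule of the classical pathway. They lie in a row on the minus strand of chromosome 4 (GRCm38): C1qb at 136880129 to 136886187, C1qc at 136889804 to 136893065 and C1qa at 136895917 to 136898803. Promoter sequences are shown for the 2 of these neighbours that RefSeq's table holds, because their levels moved together, with that of Itgam beside them as a gene of the same cells on another chromosome. Each is the 250 bases before the RefSeq start (GRCm38.p6), 5′ to 3′ on the gene's strand, with capitals marking GAGGAA, the core bound by the myeloid factor PU.1, searched on both strands. The RefSeq start of C1qc lies inside the gene span given above, so part of its window lies within that span.
C1qb, chr4:136886201-136886450, minus strand: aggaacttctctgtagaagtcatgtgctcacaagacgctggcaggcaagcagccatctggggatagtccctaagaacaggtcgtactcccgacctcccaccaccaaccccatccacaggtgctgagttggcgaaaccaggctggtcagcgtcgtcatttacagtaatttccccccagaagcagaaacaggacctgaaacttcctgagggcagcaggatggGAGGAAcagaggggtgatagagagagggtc
C1qc, chr4:136892915-136893164, minus strand: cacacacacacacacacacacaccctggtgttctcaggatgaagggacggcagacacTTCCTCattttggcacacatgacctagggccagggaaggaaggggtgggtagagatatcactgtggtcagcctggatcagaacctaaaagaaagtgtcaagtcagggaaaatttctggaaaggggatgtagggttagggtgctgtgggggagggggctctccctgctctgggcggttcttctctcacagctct
Itgam, chr7:128062390-128062639, plus strand: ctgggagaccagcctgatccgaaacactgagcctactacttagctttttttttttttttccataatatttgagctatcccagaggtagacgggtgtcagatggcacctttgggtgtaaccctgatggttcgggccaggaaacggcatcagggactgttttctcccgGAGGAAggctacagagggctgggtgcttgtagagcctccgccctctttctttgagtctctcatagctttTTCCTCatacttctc

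GAGGAA began at -30 in C1qb, at -193 on the other strand in C1qc (written TTCCTC), and at -84 and, on the other strand, -15 in Itgam. Of 32851 promoter windows of this length, 23.3% held GAGGAA on either strand, so these matches are common and are a description only. The table held windows for 6 of the 9 genes. Those of C3, C3ar1 and C5ar1 held no GAGGAA, which says only that these letters are not in those windows. The windows of C3ar1 and C5ar1 also overlap the spans annotated for their genes.

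For C1qa the medians of the 4 groups ran from 33.4 to 35.6 CPM. It ranged from 30.9 to 38.8 CPM (median 33.4) in Grn+/+ hTDP- mice and from 30.0 to 44.0 CPM (median 33.7) in Grn+/+ hTDP+ mice. It ranged from 31.0 to 51.0 CPM (median 35.6) in Grn+/- hTDP- and from 32.3 to 45.0 CPM (median 33.9) in Grn+/- hTDP+ mice. The 4 medians lie close together, and the high ends come from single mice: Grn+/- hTDP- replicate 1, Grn+/- hTDP+ replicate 6 and Grn+/+ hTDP+ replicate 2. The average transgene effect on C1qa was -0.02 on the log2 scale (95% interval -0.18 to 0.13), and the average Grn effect was 0.09 (-0.06 to 0.25). As a fold, the transgene interval for C1qa ran from 0.884 to 1.09.

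C1qb and C1qc gave values of the same kind. C1qb had medians of 33.5, 29.5, 33.8 and 32.6 CPM in the 4 groups, an average transgene effect of -0.08 (-0.24 to 0.08) and an average Grn effect of 0.11 (-0.05 to 0.27). C1qc had medians of 26.1, 27.4, 28.8 and 29.1 CPM in the same order. Its average Grn effect was 0.17 (0.0019 to 0.33), a fold of 1.12 (unadjusted p = 0.0476, adjusted p = 0.926, edgeR), and of the 12 Grn+/- mice the 6 without the transgene had 3 above every Grn+/+ hTDP- mouse and the 6 with it had 3 above every Grn+/+ hTDP+ mouse. The estimates of the microglia marker list lay on the same side: 17 of its 18 genes had an average Grn estimate above 0, with a median of 0.10 and 0 called by edgeR (4 at an unadjusted p under 0.05), and none was at 0 in any library. Its summed level was 428 to 500 CPM in Grn+/+ hTDP-, 392 to 488 in Grn+/+ hTDP+, 434 to 593 in Grn+/- hTDP- and 422 to 552 in Grn+/- hTDP+ mice. With the mean of that list as a term in the model, the C1qc estimate was -0.0010 (unadjusted p = 0.978, edgeR). That mean had r = 0.927 with C1qc and was higher in the Grn+/- groups, so such a term draws the estimate towards 0. The part of microglia in the C1q values was not tested. Without Grn+/- hTDP- replicate 1 the average Grn effects were 0.05, 0.06 and 0.11 for C1qa, C1qb and C1qc, and the average transgene effect on C1qa was 0.02. The erythroid list lay on that side for Grn as well: all 5 of its genes had an average Grn estimate above 0, with a median of 0.97, and 5 were at an unadjusted p under 0.05 with 0 called by edgeR. Its summed level was 11.1 to 30.8, 17.9 to 54.2, 10.96 to 150.3 and 13.2 to 77.9 CPM in the 4 groups, with none of its genes at 0 in any library. Its r with C1qc was 0.607, with C1qa 0.593 and with C1qb 0.577, and its part in the C1q values was not tested. That side was not particular to these lists. Above 0 were 12 of 12 mural and meningeal genes (median 0.23), 9 of 9 astrocyte (0.07), 7 of 8 border macrophage (0.09) and 7 of 8 endothelial genes (0.05). So were 5 of 5 neutrophil and monocyte genes tested (0.63) and 10 of 14 reactive astrocyte genes. Choroid plexus and ependyma had 3 of 6, neurons 3 of 11 and oligodendrocytes 0 of 11. In bulk tissue, fewer cells of a type and less RNA per cell cannot be told apart.

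C3 is the component on which the pathways converge, and C4b encodes the C4 protein of the classical pathway. C3 was at 0.0282 to 0.196 CPM (median 0.137) in Grn+/+ hTDP- mice, 0.103 to 0.614 (median 0.331) in Grn+/+ hTDP+, 0.0921 to 0.887 (median 0.254) in Grn+/- hTDP- and 0.0649 to 0.561 (median 0.209) in Grn+/- hTDP+ mice. In CPM the reference group was thus the lowest of the 4, with 4 of 6 Grn+/+ hTDP+ mice, 5 of 6 Grn+/- hTDP- mice and 4 of 6 Grn+/- hTDP+ mice above all of its mice. These counts do not hold in TPM. There its median was still the lowest, at 0.0517, but its replicate 3 stood at 0.299 TPM, from 14 reads. The highest mice of the other groups were at 0.227, 0.337 and 0.207 TPM in the same order. TPM also depends on the transcript to which reads are assigned. The C3 transcript C3-203 had reads in 2 libraries only, with a mean of 0.165 reads over the 24. Its share of the C3 reads reached 23.9% in 1 library. The part of C3-203 in the TPM values and in the counts scaled by transcript length was not tested. The log2 change with the transgene was 1.47 (SE 0.533, interval 0.36 to 2.57) in Grn+/+ mice and -0.58 (-1.63 to 0.47) in Grn+/- mice, the latter -0.16 without Grn+/- hTDP- replicate 2. Averaged over both it was 0.44, and -0.06 with counts scaled by transcript length. The interaction was -2.05 (SE 0.735, interval -3.57 to -0.52), with an unadjusted p of 0.0106 and an adjusted p of 0.99993 in edgeR's test, so it did not pass. Leaving out each library in turn, it stayed between -2.42 and -1.62, with a lowest adjusted p of 0.99919. These estimates rest on 2 to 60 reads per library. Markers of choroid plexus and ependyma moved with C3: in Grn+/+ mice 6 of the 6 tested, of 8, had a transgene estimate above 0 (median 0.77, 0 called by edgeR, 2 at an unadjusted p under 0.05), and for the interaction 5 of 6 were below 0 (median -0.67). Other lists shared these signs. For oligodendrocytes 11 of 11 were above 0 (median 0.71) and 11 of 11 below 0 (median -0.87). For border macrophages these counts were 8 of 8 and 7 of 8, and for mural and meningeal cells 12 of 12 and 10 of 12. Neuron genes went the other way, with 0 of 11 above 0 and 2 of 11 below 0. The r of C3 was 0.366 with oligodendrocytes, -0.07 with border macrophages and 0.03 with mural and meningeal cells. The choroid plexus and ependyma list summed to 5.67 to 13.1, 6.36 to 29.5, 5.44 to 17.96 and 5.69 to 9.59 CPM in the 4 groups, highest in Grn+/+ hTDP+ replicate 2 and Grn+/- hTDP- replicate 2, which also had the highest C3 in CPM. The oligodendrocyte sum was highest in those same libraries, at 4220 and 5563 CPM. Folr1 was at 0 in 2 libraries, Ccdc153 in 6 and Tmem212 in 17, and the part of any of these cell types in the C3 values was not tested.

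C4b was at 10.7 to 20.1 CPM (median 15.5) in Grn+/+ hTDP- mice, 11.6 to 32.3 (median 21.01) in Grn+/+ hTDP+, 11.4 to 48.3 (median 20.6) in Grn+/- hTDP- and 13.7 to 29.8 (median 22.3) in Grn+/- hTDP+ mice. Again the reference group had the narrowest range and the lowest median, and 3 of 6 mice in each other group lay above all of it. The log2 change was 0.53 (-0.10 to 1.16) for the transgene in Grn+/+ mice, 0.58 (-0.05 to 1.22) for Grn+/- without the transgene and 0.48 (-0.16 to 1.11) for both changes against neither, none of which passed. With Grn+/- hTDP- replicate 1 left out, the change for Grn+/- without the transgene was 0.27 and the average Grn effect on C4b was 0.12 in place of 0.26. C4a, a near-identical neighbour of C4b, is counted apart by the authors' quantification at 1.28 ± 0.720 TPM, and reads may be split between them. Adding its reads to C4b left 0 comparisons called, with 0.52 for the transgene in Grn+/+ mice.

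Among the receptors, Itgam encodes the alpha chain of CR3 (CD11b), which binds cleaved C3. Itgam was at 16.2 to 22.5 CPM (median 19.1) in Grn+/+ hTDP- mice and 15.3 to 20.5 (median 17.9) in Grn+/+ hTDP+, 16.1 to 24.6 (median 19.8) in Grn+/- hTDP- and 14.7 to 26.6 (median 20.3) in Grn+/- hTDP+ mice. The 4 ranges overlap over most of their length. Its average transgene effect was -0.03 (-0.20 to 0.14) and its average Grn effect 0.12 (-0.05 to 0.28), or 0.07 without Grn+/- hTDP+ replicate 6. Itgam reads were split between the protein-coding transcripts Itgam-203, with a mean of 54.6% (10.6% to 70.8% over libraries), and Itgam-201, with 43.7% (28.0% to 64.7%), whereas C1qa, C1qb and C3ar1 have 1 transcript each in the files.

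C3ar1, the receptor for the C3a fragment, was at 0.949 to 2.10 CPM (median 1.60) in Grn+/+ hTDP-, 1.16 to 1.69 (median 1.38) in Grn+/+ hTDP+, 1.37 to 2.42 (median 1.58) in Grn+/- hTDP- and 1.23 to 2.28 (median 1.81) in Grn+/- hTDP+ mice. Among hTDP+ mice, 3 of the 6 with 1 Grn copy lay above all of those with 2. That comparison gave a log2 change of 0.39 (0.02 to 0.75), with an unadjusted p of 0.0376 and an adjusted p of 0.989 (edgeR), and without the transgene the change was 0.05 (-0.32 to 0.41). The interaction for C3ar1 was 0.34 (-0.17 to 0.85) and did not pass. C5ar1, the receptor for C5a, was at 0.391 to 0.727, 0.471 to 1.56, 0.403 to 1.09 and 0.368 to 1.20 CPM in the 4 groups, from 25 to 153 reads per library. The top C5ar1 value of all 24 in CPM was that of Grn+/+ hTDP+ replicate 2, the library that stood apart, and without it the transgene effect in Grn+/+ mice was 0.25 in place of 0.54. In TPM that library was at 1.285, below Grn+/- hTDP+ replicate 2 at 1.58.

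Serping1 encodes the C1 inhibitor, which blocks the proteases that C1q activates. It varied most between mice among the genes above 2 CPM, from 0.653 to 4.07 CPM (median 1.97) in Grn+/+ hTDP- and 1.47 to 5.37 (median 3.64) in Grn+/+ hTDP+ mice. In Grn+/- hTDP- mice it was at 0.932 to 5.67 (median 2.75) and in Grn+/- hTDP+ mice at 1.36 to 5.68 CPM (median 2.85). The 4 ranges overlap widely. The average transgene effect was 0.36 (-0.31 to 1.02) and the average Grn effect 0.13 (-0.52 to 0.79). As a fold the transgene interval ran from 0.809 to 2.02, and without Grn+/- hTDP- replicate 4 the average Grn effect was 5.3e-05.

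**Figure D2:**
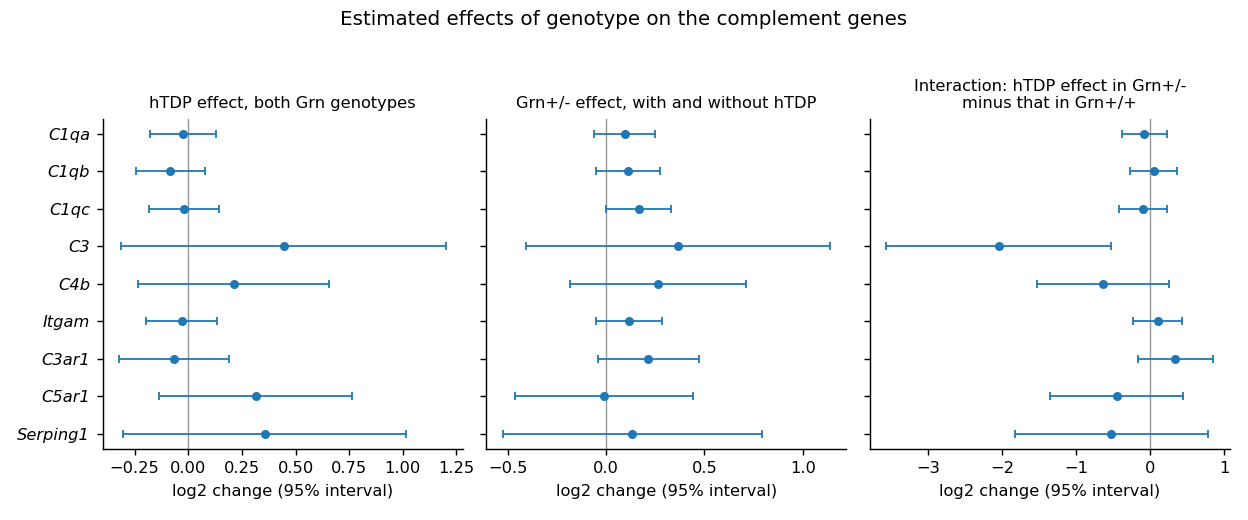
Log2 change (x axis) with its 95% interval for each gene (y axis) for the transgene averaged over Grn genotypes, for Grn averaged over transgene status and for their interaction, from the model over 24 libraries; the panels have different x scales. The C1q chains and Itgam have the narrowest intervals, all spanning 0 except C1qc for Grn (0.0019 to 0.33), and the interaction interval of C3 (-3.57 to -0.52) misses 0 before adjustment.

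The wider pathway gave as few calls. Of 51 other complement genes, 35 passed the filter, and 0 were called by edgeR in any comparison. At an unadjusted p under 0.05 were 2 for the average transgene effect, 1 for the average Grn effect and 0 for the interaction, and limma voom and DESeq2 called 0 as well, DESeq2 among the 10 to 35 genes to which it gave an adjusted p. The classical pathway proteases and substrates were low: C1ra, which encodes a C1 protease, was at 3.16 ± 1.16 TPM, C1s1, its partner protease, at 1.05 ± 0.581 TPM, and C2 at 1.05 ± 0.774 TPM. Of the lectin pathway, Masp1, a protease gene, was at 9.55 ± 1.28 TPM. Properdin (Cfp), which stabilises the alternative pathway's enzyme, was at 2.80 ± 1.14 TPM and Cfb, a protease of that enzyme, at 0.103 ± 0.0781 TPM. Of the terminal pathway, 2 of 7 genes passed the filter, C7 and C8g, and C9, which forms the membrane pore and was picked out after its values were seen, was listed at 0 in all 24 libraries. Calr, which binds C1q, was at 279 ± 16.7 TPM and C1qbp at 92.7 ± 3.32 TPM. Among the regulators, clusterin (Clu), which binds the terminal complex, was at 793 ± 38.2 TPM, and the complement-binding neuronal proteins Sez6l2 at 255 ± 12.2 TPM, Sez6 at 118 ± 17.1 TPM and Sez6l at 96.6 ± 7.62 TPM. Itgb2, the beta chain that pairs with Itgam in CR3, was at 3.66 ± 0.612 TPM and had an average Grn effect of 0.20 (unadjusted p = 0.0266, adjusted p = 0.926, edgeR).

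Sex was balanced in every group and was compared in the same model, with 0.0713% of genes called between males and females. None of the 9 was called by edgeR, DESeq2 or limma voom. Before adjustment 1 of the 9 was at p under 0.05, against 5.99% of all genes. This was C1qa (unadjusted p = 0.0494, adjusted p = 0.830, edgeR), at 33.5 ± 2.81 CPM in 12 males and 37.3 ± 6.44 CPM in 12 females. The female mean includes all 3 of the mice that ranked highest for C1qa.

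Age differed within the groups, so a slope per month was fitted with genotype and sex in the model. It called 0.0219% of all genes and 0 of the 9 by edgeR or limma voom, and DESeq2 gave none of the 9 an adjusted p. Before adjustment, 5 of the 9 were at p under 0.05, against 3.21% of all genes, all with levels higher in older mice: C4b with 0.53 log2 per month (SE 0.145, unadjusted p = 0.00142, adjusted p = 0.763), C3 with 0.84 (unadjusted p = 0.0030), C1qa with 0.14, C1qb with 0.13 and C1qc with 0.15. The median slope of the 9 was 0.14, against 0.0018 over all genes tested. In the microglia list 15 of 18 slopes lay above 0, with a median of 0.09, and 8 were at an unadjusted p under 0.05. With the mean of that list in the model, the slopes of C1qa, C1qb and C1qc were 0.03, 0.03 and 0.02, that of C4b 0.27 and that of C3 0.64. That mean itself moved with these genes (r of 0.589 to 0.927), and the part of microglia in the slopes was not tested. Among pathway genes, Itgax, the alpha chain of CR4, picked out after its values were seen, had a slope of 1.005 (unadjusted p = 0.00208) and Itgb2 one of 0.16.

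The age range rests largely on 1 group. In Grn+/- hTDP- mice C4b was at 11.5 and 11.4 CPM at 8.19 months, 26.3 at 9.14, 14.8 at 9.44, 48.3 at 10.56 and 29.4 CPM at 10.79 months. The 2 youngest mice were thus the lowest and the 2 oldest the highest of that group. Without that group, an alternative chosen after seeing the data, the slope over the other 18 libraries was 0.24 for C4b, 0.12 for C1qa, 0.02 for C1qb, 0.09 for C1qc and 0.93 for C3. None of these 5 reached an unadjusted p under 0.05 in edgeR's test. Without Grn+/- hTDP- replicate 1 alone, the slopes were 0.40 for C4b, 0.09 for C1qa, 0.07 for C1qb, 0.09 for C1qc and 0.93 for C3. In edgeR's test their unadjusted p was then 0.0144, 0.135, 0.276, 0.174 and 0.00277 in that order. The C1q slopes under an unadjusted p of 0.05 thus depended on that 1 library. With counts scaled by transcript length the C3 slope was 0.44. Within the 9.44 to 10.07 month mice alone the C4b slope was 0.11 (unadjusted p = 0.733).

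**Figure D3:**
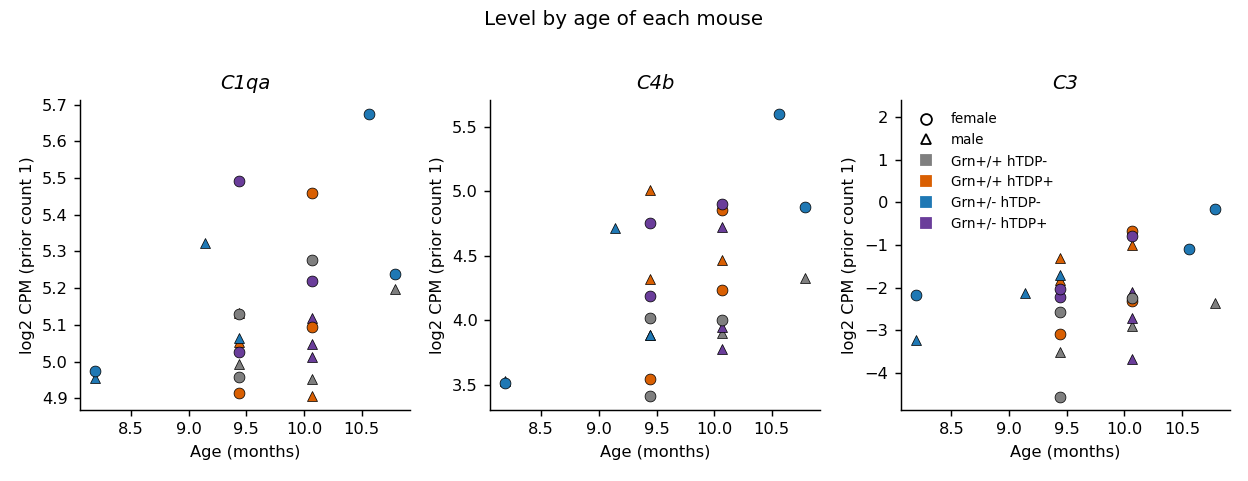
Log2 CPM (y axis, prior count 1) of C1qa, C4b and C3 against age in months (x axis) for each mouse, coloured by genotype, circles for females and triangles for males. The ages below 9.44 months belong to Grn+/- hTDP- mice only, and C4b runs from 11.4 CPM at 8.19 months to 48.3 CPM at 10.56 months in that group.

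From mouse to mouse, once group and sex means were removed, most of the genes moved together. Of 36 pairs, 17 had an adjusted p under 0.05 (Pearson r, permutation test with 100000 resamples, two-sided, n = 24, adjusted over the 36), all of them with r above 0. The share among pairs of other genes was not counted, so this count is a description only. The permutations shuffled the 24 values left after removing group and sex, without allowing for the terms removed. These p may therefore be somewhat too low, and age was not removed. C1qa and C1qc had r = 0.895 and rho = 0.883, and C1qb and C1qc had r = 0.889 and rho = 0.819 (permutation p = 1e-05 for each of the 4 values, the smallest these resamples can give). C1qc and Itgam had r = 0.846 (permutation p = 1e-05). C4b moved with C1qc (r = 0.806, rho = 0.718), C1qa (r = 0.782, rho = 0.700) and C3 (r = 0.767, rho = 0.808). Without the 2 libraries farthest from the median of the first gene, the lowest r of these 6 pairs was 0.693, for C1qc and C4b. C5ar1 had 1 pair at an adjusted p under 0.05, with C1qa (r = 0.466), which was r = 0.178 without the 2 farthest libraries and so rests on them. C1qa and C1qb had r = 0.706, and r = 0.954 without Grn+/+ hTDP+ replicate 2.

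Serping1 stood outside this pattern. Its r with C1qa, C1qb, C1qc, C3 and Itgam lay between -0.19 and 0.12, and none of its 8 pairs had an adjusted p under 0.05. Its largest was with C3ar1 (r = 0.425, adjusted permutation p = 0.0762). Whether these r values differ from those among the C1q genes was not tested.

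Against 11 marker lists of cell types, 28 of 99 relations had an adjusted p under 0.05 by the same permutation test. The share for other genes was not counted here either, so this count is a description only. The microglia list moved with C1qc (r = 0.927, rho = 0.923), Itgam (r = 0.888, rho = 0.869), C1qa (r = 0.879, rho = 0.874) and C4b (r = 0.776, rho = 0.710), with an adjusted permutation p of 0.000165 for each r. Serping1 moved with border macrophage genes (r = 0.953, rho = 0.940) and with mural and meningeal genes (r = 0.922, rho = 0.915), and had r = -0.05 with microglia. C1qb had r = 0.741 (rho = 0.788) with reactive astrocyte genes, beside r = 0.742 (rho = 0.686) with microglia. Both include Grn+/+ hTDP+ replicate 2, the library that stood apart. There C1qb was the lowest of the 24, C1qa was at rank 3 and the reactive astrocyte mean was -0.61. For C1qa the r with reactive astrocyte genes was 0.339, and 0.453 without the 2 libraries farthest from its median. For C1qc it was 0.608 (adjusted permutation p = 0.0116), and 0.505 without its 2 farthest libraries. Without the 2 libraries farthest from the C1qb median, the r of C1qb was 0.695 with reactive astrocyte genes and 0.614 with microglia. C3ar1 had r = 0.633 with reactive astrocyte genes, 0.540 with border macrophages and 0.335 with microglia. C3 had r = 0.639 (rho = 0.626) with choroid plexus and ependyma genes and 0.589 with microglia. The border macrophage list summed to only 1.66 to 8.06 CPM over the libraries, with 1 of its 8 genes, Folr2, at 0 in 1 library. The mural and meningeal list summed to 90.8 to 167 CPM with none of its 12 genes at 0. The neuron list ran the other way for C4b (r = -0.697, rho = -0.634) and C1qa (r = -0.638, rho = -0.706). It did so too for C3 (r = -0.591), Itgam (-0.546) and C1qc (-0.545), each with an adjusted permutation p under 0.05. C1qb (r = -0.375) and C5ar1 (-0.354) did not pass, and C3ar1 (0.09) and Serping1 (0.17) had r above 0. The part of cell composition or dissection in these relations was not tested.

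**Figure D4:**
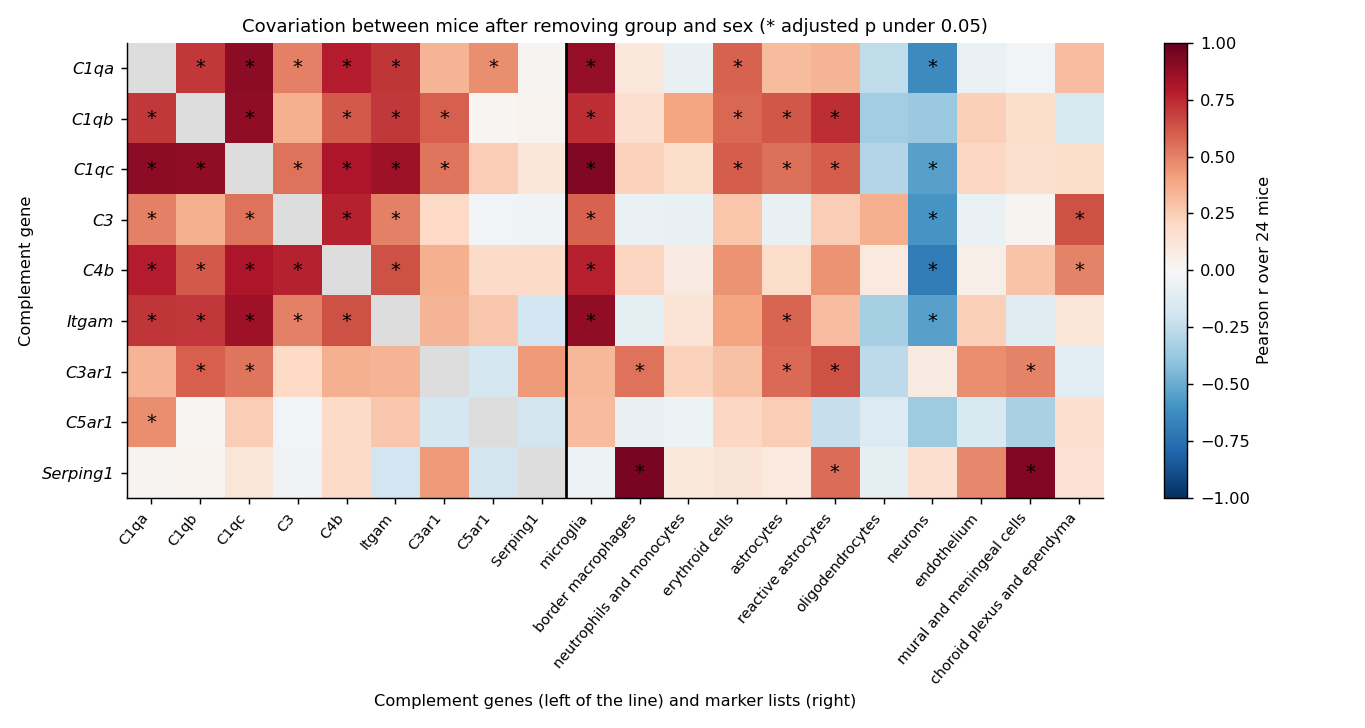
Pearson r over 24 mice, after removing group and sex means, of each of the 9 genes (y axis) with the other genes and with 11 marker lists (x axis); stars mark an adjusted permutation p under 0.05. C1q chains, C4b and Itgam share the microglia column (r of 0.742 to 0.927), while Serping1 is near 0 there (r = -0.05) and high for border macrophages (r = 0.953).

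The single genes most like 4 of the 9 are given as a description, chosen as the top 5 of 14210 genes with a mean of at least 1 CPM. For C1qa they were Tmem176b (r = 0.958), Lag3 (0.935), Laptm5 (0.898), Dapp1 (0.873) and Siglech (0.865, each over 24 mice), of which Laptm5 and Siglech are in the microglia list. For C4b the nearest was Gfap (r = 0.955, rho = 0.937), the intermediate filament of astrocytes, followed by Slc14a1 (0.882), Id4 (0.862), Acot1 (0.846) and Ggta1 (0.839). The reactive astrocyte list as a whole, of which Gfap is 1 of 14, had r = 0.448 with C4b (adjusted permutation p = 0.0862). For Serping1 they were Aldh1a2 (0.972), Igf2 (0.962), Bmp6 (0.959), Mrc1 (0.957) and Aebp1 (0.951), of which Mrc1 is in the border macrophage list. For C3 the values were lower, led by S100a16 (0.806), Sgcz (0.765) and Plxdc2 (0.764).

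Summed over the 3 chains, C1q was at 83.5 to 106, 82.2 to 101, 84.6 to 141 and 85.2 to 125 CPM in the 4 groups. Set against the summed microglia markers, the ratio was 0.205 ± 0.0137, 0.201 ± 0.0091, 0.206 ± 0.0214 and 0.207 ± 0.0112 (SD, n = 6 each), so the groups differed by less than the spread between mice. The ratio of C1qa to C1qb in TPM was 1.11 ± 0.0447 over 23 libraries, from 1.03 to 1.20. In Grn+/+ hTDP+ replicate 2 it was 1.76, with C1qa at rank 3 from the top and C1qb lowest of the 24. Without that library the average transgene effect was -0.06 for both genes.

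**Figure D5:**
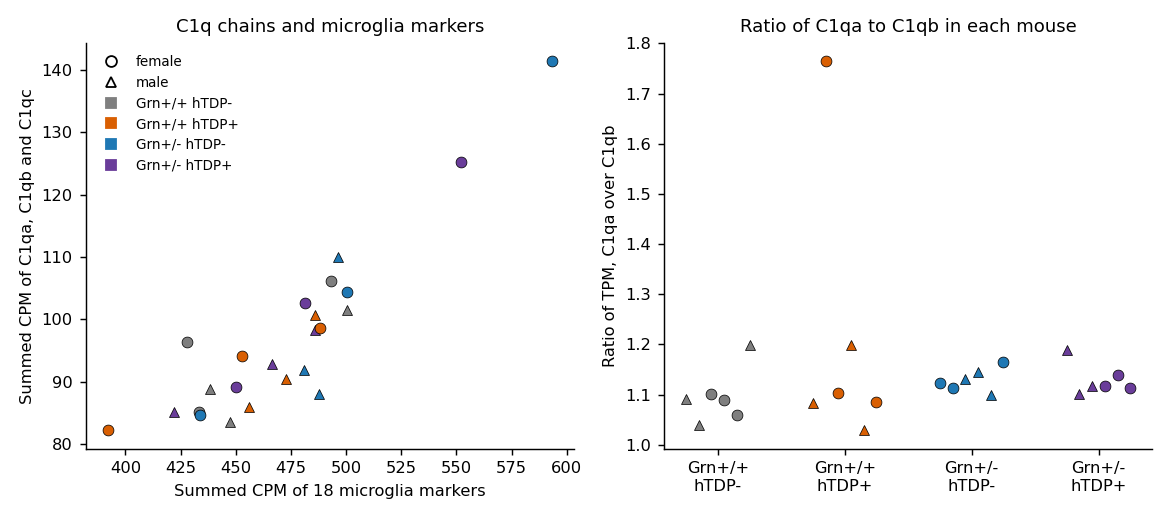
Left, summed CPM of the C1q chains (y axis) against the summed CPM of 18 microglia markers (x axis) for each mouse; right, the TPM ratio of C1qa to C1qb (y axis, not from 0) by genotype (x axis), circles for females and triangles for males. On the left the C1q sum runs from 82.2 to 141 CPM and is highest where the marker sum is highest, and on the right 1 Grn+/+ hTDP+ mouse stands at 1.76 above the other 23, at 1.03 to 1.20.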

How the data were processed

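RNA of 24 frontal cortices was measured. Per the file headers, the authors' deposited Salmon tables hold expected counts (estimated reads per transcript), TPM and effective lengths. STAR, SAMtools, Salmon and DESeq2 appear, with no version, per the submitters' processing notes, and no source used here gives the authors' build or annotation. The labels' protocol describes both directional and non-directional steps, so overlapping genes may share reads. Transcript identifiers without versions were matched to GENCODE M21 (GRCm38). Of 149444 transcripts, 138032 (92.4%) matched, and 11411 with 1.17% to 1.66% of reads were left out.

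Expected counts were summed per gene, rounded and tested with edgeR 4.0.16 (R 4.3.3) by its quasi-likelihood test over all 24 libraries, with TMM scaling, its default low-count filter, genotype and sex terms, and Benjamini-Hochberg adjustment over all genes. The average effects take both levels of the other factor with equal weight. Intervals are 95%. DESeq2 1.42.0 and limma 3.58.1 were alternatives, beside those in the closing section. Log2 CPM used a prior count of 1. Tests were checked on simulated data. All 9 genes are named, with pathway genes from the 4 highest in mean CPM per role, Itgax and C9 besides, and the 5 genes most similar to C1qa, C3, C4b and Serping1. The genes and lists were chosen with earlier results of these data known.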

Additional observations from a re-analysis of the deposited data

Results flagged for a closer look

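In 44 sets of 6 mice examined for a value far from the others (9 genes and 2 C1q ratios in 4 groups, the ratios added after seeing the data), 2 values stood out by Dixon's test, which flags about 1 set in 20 by chance. C3ar1 in Grn+/+ hTDP- replicate 6 had a log2 CPM of -0.0545, against 0.66 to 1.08 in the other 5 mice. The ratio of C1qa to C1qb in Grn+/+ hTDP+ replicate 2 was 0.82 on the log2 scale, against 0.04 to 0.26 in the other 5, in the library that also listed the fewest transcripts above 0.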

How the results depend on the processing

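The 40 alternatives run include some for the correlations only, which test no gene. The others covered the 9 genes in the 10 comparisons, a few of them only 1 gene or part of the comparisons. None of the 9 genes was called in any of these, over 3081 estimates with an adjusted p. Of those, 141 had the other sign and 2940 the same sign without passing. DESeq2 gave the 9 no adjusted p for age. The number of all genes called moved more. It was 6 for the transgene in Grn+/+ mice (1 to 29 under other settings), 4 for it in Grn+/- mice (0 to 10), 2 for Grn+/- without the transgene (0 to 6), 1 for Grn+/- with it (0 to 5), 14 for both changes (2 to 92), 0 for the interaction (0 to 3), 20 for the average transgene effect (2 to 61), 4 for the average Grn effect (1 to 9), 13 for sex (11 to 22) and 4 for age (0 to 19), the highest always from DESeq2. With 1 library left out these counts ran from 4 to 7, 2 to 4, 0 to 3, 1 to 2, 4 to 16, 0 to 0, 14 to 22, 4 to 6, 12 to 16 and 1 to 4 in the same order. Relations with marker lists at an adjusted permutation p under 0.05 were 28, and 16 without the 2 libraries farthest from the median of the gene. They were 32 without Grn+/+ hTDP+ replicate 2 and 20 without Grn+/- hTDP- replicate 1, both chosen after seeing the data. Counts scaled by transcript length put the average transgene effect on C3 at -0.06 in place of 0.44. No paired analysis was possible because replicate numbers follow accession order and pair no mice, and the labels tie no mice to a litter. With 1 term for each of the 6 ages, chosen after seeing the data, 0 of the 9 were called and the C3 interaction was -2.62. C3, at 2 to 60 reads per library, is the gene most limited by depth.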
